A study of Mus musculus with 13 samples.

Results

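The 10 genes described here belong to the integrated stress response and were followed in the gastrocnemius muscle of obese mice treated with vehicle, semaglutide, or semaglutide together with a ketone ester. They are Atf4, Atf5, Ddit3, Trib3, Chac1, Sesn2, Gdf15, Fgf21, Stc2 and Nupr1, which were taken by gene symbol from the 21868 rows of the normalized count table. All 10 were found. They were chosen by name, with the group means and limma calls of these same mice known, and so their levels and differences are given as a description without p-values.

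The integrated stress response is the pathway by which a cell that is short of amino acids, burdened with unfolded protein, or impaired in its mitochondria phosphorylates the translation initiation factor eIF2, which lowers protein synthesis in general and raises translation of the transcription factor ATF4. ATF4 and its partners then switch on genes for amino acid supply, tRNA charging and redox balance, as well as genes that restrain the response or lead to cell death when stress persists. In skeletal muscle, the pathway is known for its link to fasting and disuse atrophy and to mitochondrial myopathy, in which muscle secretes FGF21 and GDF15 into the circulation. ATF4 is controlled mainly at translation, and RNA-seq measures only the abundance of its transcript.

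RNA was sequenced from the gastrocnemius of 13 male C57BL/6 mice (C57BL/6N substrain) that arrived at 7 weeks of age. All were made obese on a diet with 60% of calories from fat for 15 to 17 weeks and moved to chow when treatment began. For 3 weeks, 5 mice received PBS as vehicle and 5 received semaglutide, a glucagon-like peptide-1 receptor agonist, at 30 nM/kg per day by intraperitoneal injection. A further 3 drank water containing ketone ester at 0.114 g/mL while given semaglutide at that dose. Every group therefore shares the diet-induced obesity and the return to chow. None of the sequenced mice received the ketone ester alone, and each mouse is 1 library of whole muscle. The sample labels add a placebo to the vehicle and to the semaglutide treatment, and the sources used here do not describe it.

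Between 15319471 and 23498162 reads per mouse were assigned to genes. Genes that mark skeletal muscle fibers were abundant in all 13 mice, with summed normalized counts of 10 such genes between 2114090 and 4427360 per mouse. Semaglutide mouse 13 stood apart from the other semaglutide-treated mice for many genes of the pathway. For the genes named below, calls that change when it is left out are given with and without it. Because it was singled out by its values for these same genes, calls made without it are a description. In addition, semaglutide-treated mice had lower levels of 4 of 5 fibroblast markers than vehicle-treated mice, with summed normalized counts of 4625 to 6371 against 5120 to 11723, and 3 of 5 were higher in semaglutide + ketone ester-treated than in semaglutide-treated mice, in which they summed to 6644 to 11019. Markers of tendon moved the same way for 2 of 4 genes in each comparison, although a further tendon marker was lower with the ketone ester. Between semaglutide + ketone ester and semaglutide, 3 of 5 endothelial markers, all 3 tested erythroid markers (sums of 2077 to 4180 against 36.9 to 2326) and 4 of 10 muscle fiber markers were also higher and 1 muscle fiber marker lower, and the summed muscle fiber markers of these groups did not overlap (3823450 to 4427360 against 2114090 to 3461180). Of the liver markers, 1 was tested and was lower under semaglutide than vehicle. None of 8 macrophage and none of 6 adipocyte markers differed in any comparison, and no neutrophil marker reached the mean of 10, with Ly6g at 0 in every mouse. Fewer cells of a type and less RNA per cell cannot be told apart in whole muscle, and the part of these cells in the results below was not tested.

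To show the regulatory sequence that ties genes of this group to ATF4, the promoters of the 10 genes were searched for the C/EBP-ATF response element, the composite site bound by ATF4 with a C/EBP partner. The letters TGATGNAA were sought on both strands in the 250 bases before each RefSeq start (GRCm38.p6), where the element occurred in 3 of the 10 genes, against 3.907% of 27025 genes with a promoter in the table. In each of the 3 genes it lay on the strand opposite to the gene, so that it reads TTGCATCA along the gene, shown in capitals:
Chac1: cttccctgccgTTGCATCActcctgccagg
Fgf21: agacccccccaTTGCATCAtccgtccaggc
Nupr1: aaagggccagaTTGCATCAgacagggcttg
The Chac1 sequence is at chr2:119351038-119351067 on the plus strand, with the element 193 to 186 bases before the start. That of Fgf21 is at chr7:45615611-45615640 on the minus strand, 139 to 132 bases before the start, and that of Nupr1 at chr7:126625562-126625591 on the minus strand, 110 to 103 bases before it. No gene lies over the Chac1 and Fgf21 sequences in GENCODE, while that of Nupr1 overlaps an exon of a longer Nupr1 transcript. The palindrome TGACGTCA, the cyclic AMP response element that reads the same on both strands, occurred in none of the 10 promoters and in 1.769% of all genes. A match of letters is a description of the sequence, and elements outside this window were not searched.

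The transcripts themselves carry the feature through which ATF4 translation is regulated, namely start codons ahead of the coding sequence. In the GENCODE principal transcripts, the Atf4 leader of 594 bases held 3 upstream ATGs ahead of a coding sequence for 349 residues, and those of Atf5 and Ddit3 held 2 each. Gdf15 had 4, Sesn2, Stc2 and Nupr1 had 1 each, and Chac1, Fgf21 and Trib3 had none. Such upstream ATGs are common, since 54.42% of 20570 principal transcripts held at least 1.

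Levels were divided by the merged length of all annotated exons of each gene. By this measure, Atf4 was the most abundant of the 10 genes in vehicle-treated muscle, at 1149 ± 95.2 normalized counts per kb (SD, n = 5). It was followed by Atf5 at 715 ± 123 and Chac1 at 539 ± 299. Ddit3 was at 86.3 ± 7.92, Nupr1 at 32.3 ± 9.37, Sesn2 at 17.4 ± 1.74, Trib3 at 11.3 ± 3.41 and Stc2 at 6.60 ± 2.91, and Gdf15 and Fgf21 were at 0.77 and 0.26. Among neighbors in this order, the ranges over vehicle-treated mice overlapped for Atf5 and Chac1, for Sesn2 and Trib3, for Trib3 and Stc2, and for Gdf15 and Fgf21, so these pairs cannot be ordered beyond their spread. Under semaglutide, the length-corrected level of Stc2 stood in the fifth place rather than the eighth, at 26.1 ± 4.19 per kb, although its range then overlapped that of Nupr1.

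**Figure D1:**
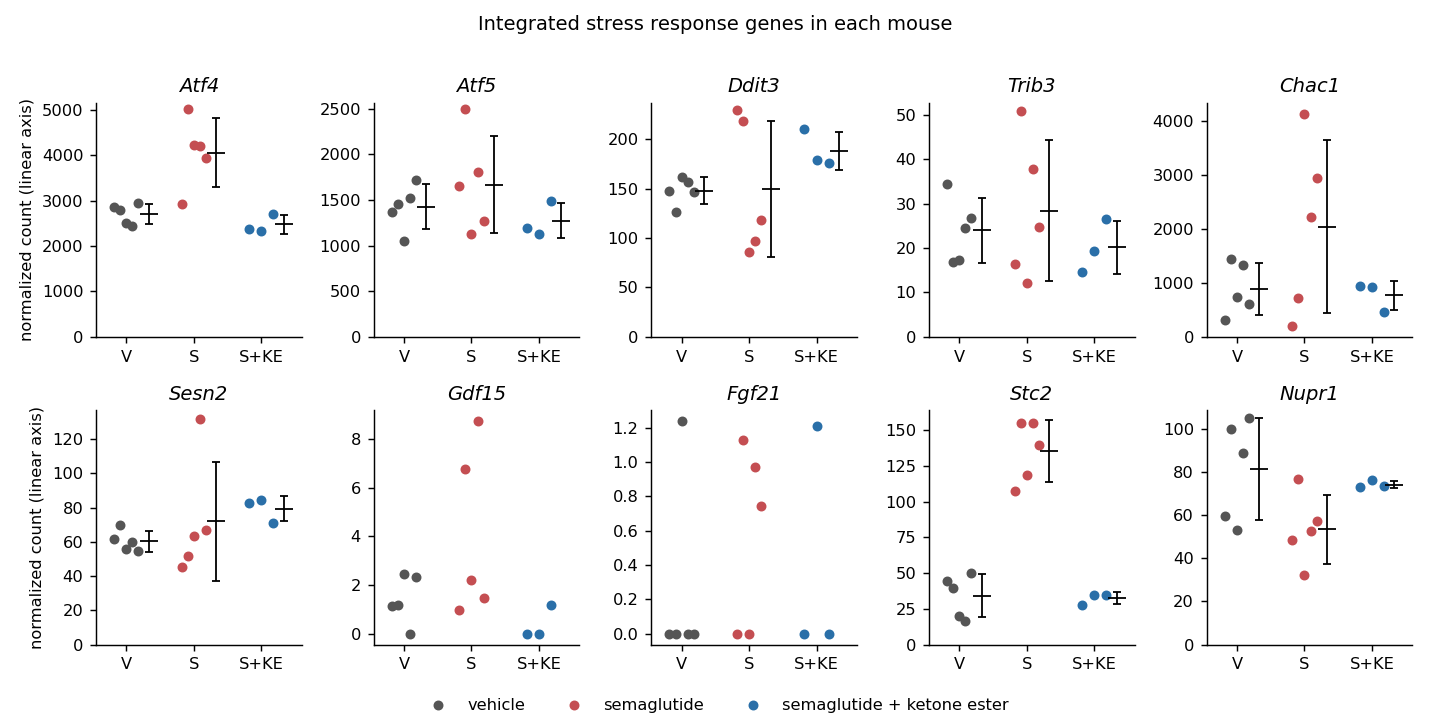
Normalized counts (vertical axis, linear, own scale in each panel) of the 10 genes in each of 5 vehicle-treated (V), 5 semaglutide-treated (S) and 3 semaglutide + ketone ester-treated (S+KE) mice, 1 point per mouse, with the mean ± SD beside the points except for Gdf15 and Fgf21. Stc2 lies between 107 and 156 in all 5 semaglutide-treated mice and at 50.1 or less in every other mouse, whereas the groups overlap for most of the other genes.

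Atf4 (chromosome 15, 80255184 to 80257541 in mm10) encodes the transcription factor at the center of the response. Its normalized counts were 2862, 2783, 2508, 2437 and 2950.4 in the vehicle-treated mice, 2917, 5013, 4214, 4191 and 3944 in the semaglutide-treated mice, and 2374, 2334 and 2714 in the semaglutide + ketone ester-treated mice. Semaglutide mouse 13, at 2917, lay within the vehicle range, and the other 4 semaglutide-treated mice lay above every vehicle-treated mouse. The mean was 4056 ± 753 (SD, n = 5) under semaglutide and 2708 ± 224 (n = 5) under vehicle, a log2 difference of 0.56 with a standard error of 0.12, which became 0.68 with a standard error of 0.09 without mouse 13. With the ketone ester the mean was 2474 ± 209 (n = 3), a log2 difference of -0.69 (standard error 0.14) from semaglutide, and all 3 mice lay below all 5 semaglutide-treated mice. The log2 difference between semaglutide + ketone ester and vehicle was -0.13 (standard error 0.14), with overlapping mice.

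Atf5 (chromosome 7, 44812256 to 44816658), a close relative of Atf4 that is linked to the mitochondrial unfolded protein response, showed no such separation. Its normalized counts were 1372, 1453, 1054, 1525 and 1726 under vehicle, 1652, 2494, 1129.7, 1806 and 1273 under semaglutide, and 1195, 1131 and 1490.1 under semaglutide + ketone ester. Only semaglutide mice 14 and 16 lay above the vehicle range. The log2 difference of semaglutide from vehicle was 0.19 with a standard error of 0.19.

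Ddit3 (chromosome 10, 127290774 to 127296288) encodes CHOP, the factor that ATF4 induces under lasting stress and that promotes cell death. Vehicle-treated mice were tightly grouped, with normalized counts of 148, 126, 162, 156 and 147. The semaglutide-treated mice fell into values above and below this range, at 229 and 219 in mice 13 and 14 and at 85.5, 97.1 and 118 in mice 15, 16 and 17, so that the mean of 149.7 ± 68.9 (SD, n = 5) was close to the vehicle mean of 147.8 ± 13.6 (n = 5) while the spread was wider. The log2 difference was -0.10 with a standard error of 0.24. In semaglutide + ketone ester-treated mice the normalized counts were 210.1, 179 and 175, above every vehicle-treated mouse, with a log2 difference of 0.35 and a standard error of 0.28. GENCODE lists a pair of overlapping genes under this symbol, and reads from them cannot be separated here.

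Nupr1 (chromosome 7, 126623249 to 126630861), a small stress-induced chromatin protein, had the most negative log2 difference of the 8 fitted genes between semaglutide and vehicle. Normalized counts were 59.5, 99.9, 53.2, 88.7 and 105 under vehicle, 48.4, 76.6, 32.2, 52.4 and 57.4 under semaglutide, and 72.9, 76.1 and 73.3 with the ketone ester. Of the semaglutide-treated mice, 3 lay below the vehicle range and 2 within it. The log2 difference from vehicle was -0.60 with a standard error of 0.23, and that of semaglutide + ketone ester from semaglutide was 0.52 with a standard error of 0.27, the latter with mouse 14 overlapping the ketone ester group. The difference from vehicle did not pass the threshold in all mice and passed without vehicle mouse 3 (-0.73) or without semaglutide mouse 14 (-0.74).

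Among the genes that feed back on the response, Trib3 (chromosome 2, 152337422 to 152344032) encodes a pseudokinase that binds and restrains ATF4 and inhibits AKT. It was low, with 11 to 45 reads per mouse. Its normalized counts of 34.3, 16.9, 17.3, 24.4 and 26.8 under vehicle, 16.4, 50.7, 12.2, 37.9 and 24.6 under semaglutide, and 14.6, 19.3 and 26.4 under semaglutide + ketone ester overlapped in every comparison. Semaglutide mice 14 and 16 held the highest values of the 13, and mouse 15 the lowest. The log2 difference of semaglutide from vehicle, 0.11 with a standard error of 0.36, was smaller than its error.

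Chac1 (chromosome 2, 119351229 to 119354381) encodes an enzyme that degrades glutathione and is induced downstream of ATF4. Of the 8 fitted genes it had the widest spread in each group, with the highest mouse 4.85 times the lowest under vehicle, 21.7 times under semaglutide and 2.08 times with the ketone ester. Normalized counts were 299, 1448, 731, 1326 and 609 under vehicle and 191, 724, 4140.0, 2211 and 2937 under semaglutide. The lowest and the highest of all 13 mice were both semaglutide-treated, mouse 13 and mouse 15, and mice 15, 16 and 17 lay above every vehicle-treated mouse. With the ketone ester the normalized counts were 929, 912 and 447, within the vehicle range. The log2 difference of semaglutide from vehicle was 0.77 with a standard error of 0.70 in all mice and 1.46 with a standard error of 0.49 without mouse 13, and that of semaglutide + ketone ester from semaglutide was -0.84 (standard error 0.80) and -1.54 (standard error 0.56). Chac1 passed the threshold in neither comparison with all mice and in both without mouse 13.

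Sesn2 (chromosome 4, 132492032 to 132510501) encodes sestrin 2, a leucine sensor that inhibits mTORC1. The normalized counts were 61.8, 69.8, 55.7, 59.9 and 54.7 under vehicle, 45.5, 51.8, 63.3, 132 and 67.1 under semaglutide, and 82.6, 84.6 and 70.9 under semaglutide + ketone ester. Semaglutide mouse 16 was the only semaglutide-treated mouse above the vehicle range, and this mouse also had the highest summed adipocyte markers, 11063 against 150 to 2674 in the other 12 mice. All 3 ketone ester-treated mice lay above all 5 vehicle-treated mice, by a narrow margin of 70.9 against 69.8, with a log2 difference of 0.39 and a standard error of 0.26.

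Among the secreted proteins, Stc2 (chromosome 11, 31357307 to 31370074) encodes stanniocalcin 2, a glycoprotein that inhibits the protease that releases IGF from its binding proteins. Its normalized counts were 44.6, 39.7, 19.8, 16.6 and 50.1 under vehicle, 107, 156, 119, 155 and 139 under semaglutide, and 27.9, 35.0 and 34.9 under semaglutide + ketone ester. All 5 semaglutide-treated mice, mouse 13 included, lay above all 8 other mice, and the ketone ester-treated mice lay within the vehicle range. The mean was 135 ± 21.7 (SD, n = 5) under semaglutide against 34.2 ± 15.1 (n = 5) under vehicle, a log2 difference of 2.07 with a standard error of 0.27, or 4.18-fold. The log2 difference of semaglutide + ketone ester, at 32.6 ± 4.05 (n = 3), from semaglutide was -2.01 with a standard error of 0.31, and from vehicle it was 0.05 with a standard error of 0.31.

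Gdf15 and Fgf21, the circulating stress hormones of the group, were near the limit of detection and were not fitted. Gdf15 (chromosome 8, 70629393 to 70632456) had 6 reads in total over the 5 vehicle-treated mice, 20 over the 5 semaglutide-treated mice and 1 over the 3 semaglutide + ketone ester-treated mice. Of the 20 reads, 6 came from mouse 14 and 9 from mouse 16, and no other mouse of the study had more than 2. Fgf21 (chromosome 7, 45613886 to 45615490) had 1, 3 and 1 reads in the 3 groups and never more than 1 read in a mouse. A library with no read of a gene could still hold up to 3 by counting error alone, so a difference in Fgf21 was not detectable at this depth.

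Of the 8 genes with a mean normalized count of at least 10 over the 13 mice, 2 (Atf4 and Stc2) passed the threshold of adjusted p under 0.05 as higher under semaglutide than vehicle, where 12.5% of all 12303 genes tested did, and none as lower, where 13.9% did. As lower under semaglutide + ketone ester than semaglutide, 2 passed, again Atf4 and Stc2, against 10.7% of all genes, and none as higher, against 10.0%. Between semaglutide + ketone ester and vehicle none passed in either direction, where 0.0975% of all genes were higher and 0.268% lower. By edgeR and by DESeq2 none passed in that comparison either, and none had an unadjusted p under 0.05. Non-overlapping groups were seen for 1 of the 8 genes between semaglutide and vehicle (Stc2), for 2 between semaglutide + ketone ester and semaglutide (Atf4 and Stc2), and for 2 between semaglutide + ketone ester and vehicle (Ddit3 and Sesn2), against 14.7%, 20.1% and 11.3% of all genes. Nothing is read from these counts, since the genes were listed with the same contrasts known, and the comparisons share the semaglutide-treated or the vehicle-treated mice.

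**Figure D2:**
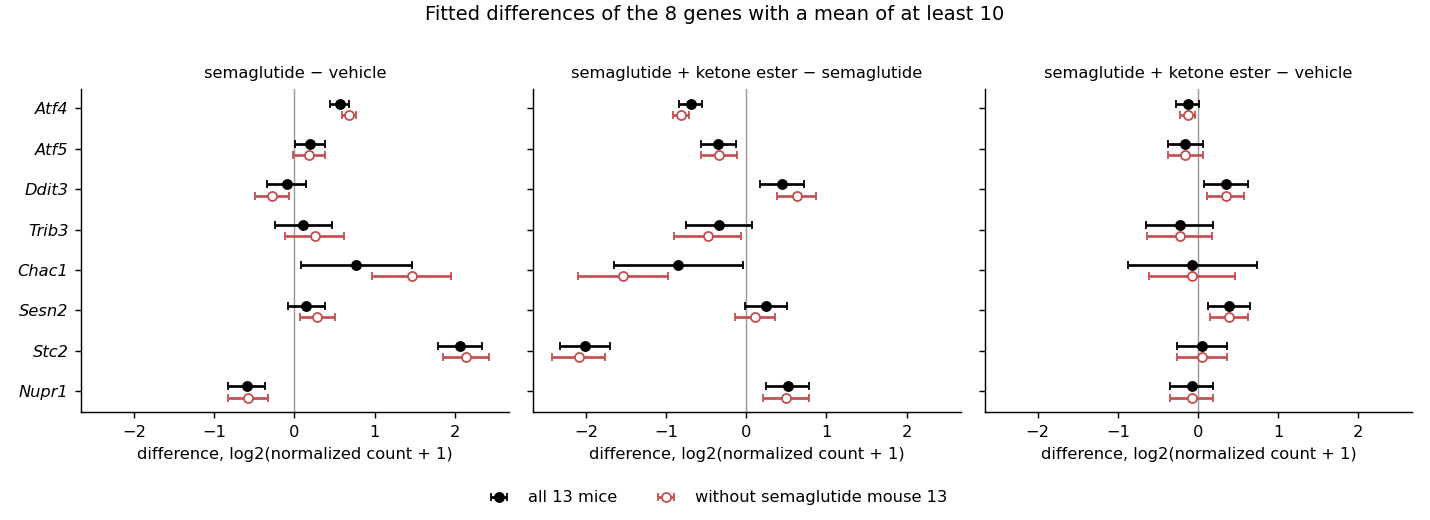
Differences between groups (horizontal axis, log2(normalized count + 1) scale) for the 8 fitted genes, with bars of 1 standard error, in all 13 mice (filled) and without semaglutide mouse 13 (open). Stc2 and Atf4 lie above 0 under semaglutide and below 0 when the ketone ester is compared with semaglutide, and Chac1 moves from 0.77 to 1.46 when mouse 13 is left out.

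The mice differed in which genes of the group were high. Relative to the vehicle mean on the log2 scale, mouse 14 had high Atf5 (0.82), Trib3 (1.10) and Ddit3 (0.57), with Chac1 close to the vehicle mean (-0.07). Mice 15 and 17 had high Chac1 (2.44 and 1.95), with Ddit3 low (-0.78 and -0.32). Mouse 13 had Ddit3 at 0.63 and Chac1 at -1.99, and among the 8 fitted genes only its Stc2 (1.75) and Ddit3 were more than 0.5 above the vehicle mean. Stc2 was the only one of the 8 genes above the vehicle range in all 5 semaglutide-treated mice, Atf4 was above it in 4, and Nupr1 in none.

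**Figure D3:**
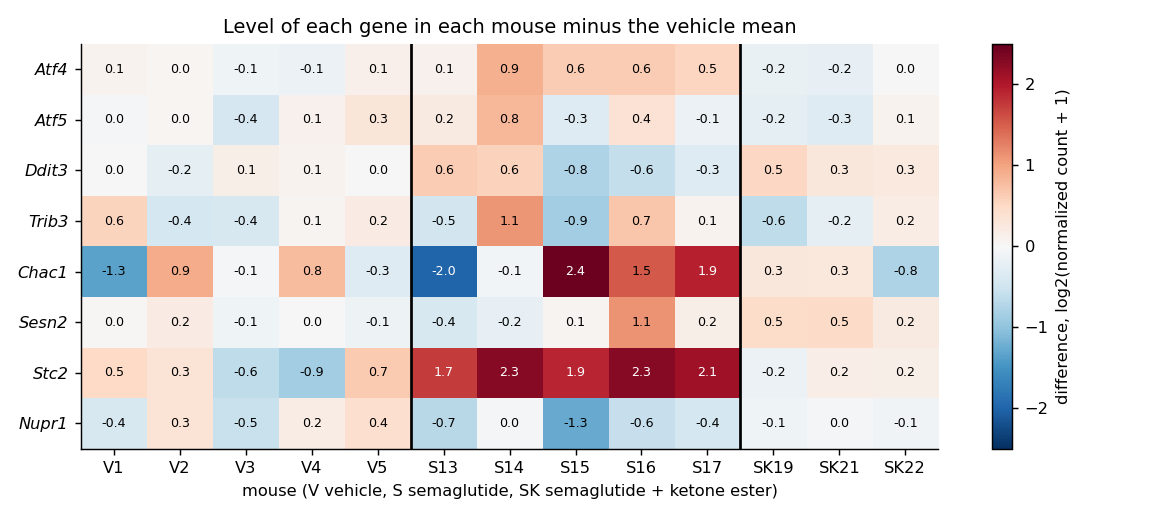
Level of the 8 fitted genes (rows) in each mouse (columns, with group letter and mouse number) minus the mean of the vehicle-treated mice, on the log2(normalized count + 1) scale, with the value printed in each cell and a color scale that ends at 2.5 in each direction. Stc2 is high across the 5 semaglutide columns (1.75 to 2.28), while Ddit3 and Chac1 are high in different semaglutide mice.

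Over the 13 mice, the correlation of Ddit3 with Chac1 was r = -0.76, and -0.78 once group means were removed, and that of Atf5 with Trib3 was 0.75 and 0.74. Atf4 correlated most with Stc2 among the fitted genes of the group (r = 0.90, rank 114 of 12302 genes), then with Atf5 (0.53), Trib3 (0.46) and Chac1 (0.41), whereas Sesn2 was at 0.05, Nupr1 at -0.40 and Ddit3 at -0.41. With the group means removed, Atf4 was at 0.59 with both Stc2 and Trib3, 0.41 with Atf5 and 0.30 with Nupr1. It was at 0.29 with Chac1, 0.21 with Sesn2 and -0.29 with Ddit3. The correlation of Atf5 with Nupr1 was 0.33 over the 13 mice and 0.77 with group means removed. The 5 other genes most like Atf4 were Bckdhb, a subunit of the branched-chain ketoacid dehydrogenase (r = 0.97), Dennd5a (0.96), Ints11, the endonuclease of the Integrator complex (0.96), Sars, the seryl-tRNA synthetase (0.95), and Psmb3, a proteasome subunit (0.94). These are descriptions over mice that share treatment groups and a single normalization.

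The other genes of the pathway were taken from a list of 108 genes. Of these, 99 reached the mean of 10 and were tested with limma with Benjamini-Hochberg adjustment over all 12303 genes. This list was also chosen with earlier results of these data known. Its shares and adjusted p-values, here and below, are therefore a description rather than an independent test. Under semaglutide, 33 of the 99 were higher than under vehicle (33.3%, against 12.5% of all genes tested) and 8 were lower (8.08%, against 13.9%), with a median log2 difference of 0.25 against -0.0029 for all genes. Without mouse 13, 47 were higher and 11 lower. Shares of all genes were taken only for the fit in all mice, so counts without a mouse have none beside them. In semaglutide + ketone ester-treated mice, 33 of the 99 were lower than under semaglutide (33.3%, against 10.7%) and 4 were higher (4.04%, against 10.0%), with a median of -0.29, and without mouse 13 the numbers were 44 and 7. The number lower was 21 without semaglutide + ketone ester mouse 21 and 20 without mouse 22. Between semaglutide + ketone ester and vehicle, 1 gene was lower and none higher by limma, while 16 had an unadjusted p under 0.05 and edgeR and DESeq2 called 1 and 2 genes. That single call was lost without ketone ester mouse 21 or mouse 22, and 4 genes were lower when mouse 13 was left out of the fit. In the test over the 3 groups together, 41 of the 99 passed, where 26.5% of all genes did. Mouse 13 lay at or below the highest vehicle-treated mouse for 18 of the 33 genes higher under semaglutide, against 1 for mouse 16 and none for mice 14, 15 and 17.

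Upstream, 2 of 8 genes of stress sensing and relay passed the threshold by limma in all mice. Under semaglutide 1 was higher and 1 lower than under vehicle, 12.5% each way, near the 12.5% and 13.9% of all genes. None of the 4 kinases that phosphorylate eIF2 passed. Gcn1, listed by its older symbol Gcn1l1, which activates the amino acid sensing kinase GCN2, was higher under semaglutide (1693 ± 342 against 1080.1 ± 37.6, SD, n = 5 each, log2 difference 0.62, adjusted p = 0.00276). Oma1, the mitochondrial protease that relays mitochondrial stress to the pathway, was lower (315 ± 33.5 against 429.8 ± 32.2, log2 difference -0.45, adjusted p = 0.00324). With the ketone ester both differed from semaglutide in the opposite direction, by -0.76 and 0.50 (adjusted p = 0.00286 and 0.00531). By limma the kinase gene Eif2ak2 passed without mouse 13 and not in all mice, lower under semaglutide than vehicle (-0.66, adjusted p = 0.0159, and 0.0553 in all mice). It was then also higher with the ketone ester than under semaglutide (0.66, adjusted p = 0.0339, and 0.104 in all mice). Impact was lower with the ketone ester without mouse 13, by -0.62 from semaglutide (adjusted p = 0.0131) and -0.85 from vehicle (adjusted p = 0.0228). In all mice its adjusted p was 0.0705 and 0.0799. By DESeq2 in all mice, 2 of the 8 genes were lower under semaglutide than vehicle, where limma called 1. With the ketone ester DESeq2 called 3 lower than under semaglutide, where limma called 1, and 1 lower than under vehicle, where limma called none.

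Of the 8 subunits of eIF2 and of its exchange factor eIF2B, 3 were higher under semaglutide (37.5%, against 12.5% of all genes). With the ketone ester 3 were lower (37.5%, against 10.7%), and none moved in the opposite direction. Of the 3 higher under semaglutide, Eif2b1 had the largest difference from vehicle (0.51, adjusted p = 0.0131), followed by Eif2b5 (0.36, adjusted p = 0.00851) and Eif2s2 (0.26, adjusted p = 0.0279).

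Both regulatory subunits that direct phosphatase to eIF2 and so end the response were higher under semaglutide than vehicle and lower with the ketone ester than under semaglutide. Ppp1r15a, which encodes the stress-induced subunit GADD34, had normalized counts of 465.7 to 656 under vehicle, 407, 1279, 1282, 1402 and 1304 in semaglutide mice 13 to 17, and 244 to 333 under semaglutide + ketone ester. Mouse 13 lay below all vehicle-treated mice, the other 4 semaglutide-treated mice lay above them, and all 3 ketone ester-treated mice lay below both. The log2 difference was 0.90 (standard error 0.27, adjusted p = 0.0267) from vehicle and -1.80 (standard error 0.32, adjusted p = 0.00193) between the ketone ester and semaglutide. Ppp1r15b, the constitutive subunit, differed by 0.46 (adjusted p = 0.0102) and -0.39 (adjusted p = 0.0490), and the latter call was lost in 17 of 24 alternatives, quantile normalization among them. The call of Ppp1r15a against vehicle was lost in 6. Between the ketone ester group and vehicle, Ppp1r15a did not pass in all mice (-0.90, adjusted p = 0.309) and passed when mouse 13 was left out of the fit (adjusted p = 0.00374). Mouse 13 is in neither of these groups, so the difference stayed at -0.90 and only its error changed.

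Of the 3 bZIP partners of ATF4, none passed the threshold between semaglutide and vehicle in all mice. The difference of Atf3, named after its values were seen, was -1.73 (adjusted p = 0.0735, with 249.8 ± 218 against 764 ± 531, SD, n = 5 each), and that of Cebpb was 0.25 (adjusted p = 0.548) in all mice and 0.55 (adjusted p = 0.0294) without mouse 13. Cebpb (-0.97, adjusted p = 0.0493) and Cebpg (-0.28, adjusted p = 0.0312) were lower with the ketone ester than under semaglutide, calls that were lost in 16 and 7 of 24 alternative analyses.

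Of the 13 amino acid and one-carbon enzymes, which are among the best known targets of ATF4, none passed as higher under semaglutide by limma in all mice, although 9 of the 13 differences were positive (median 0.25). By edgeR and by DESeq2 1 was higher and none lower, with columns rescaled to equal totals 2 were higher and 1 lower, and without mouse 13 2 were higher and 3 lower. By limma in all mice, 2 were lower (15.4%, against 13.9% of all genes). They were the serine synthesis enzyme Psph (-0.53, adjusted p = 0.0426) and the mitochondrial folate enzyme Aldh1l2 (-1.07, adjusted p = 0.0338). Both were higher with the ketone ester than under semaglutide (0.72, adjusted p = 0.0263, and 1.96, adjusted p = 0.00414). Against vehicle, the call of Psph was lost in 20 of 24 alternatives and that of Aldh1l2 in 10, edgeR and DESeq2 included. The normalized counts of Aldh1l2 were 74.4 to 113 under vehicle, 113, 37.2, 46.7, 26.2 and 22.4 in semaglutide mice 13 to 17, and 113, 222 and 171 with the ketone ester. Mouse 13 was again at the vehicle level. Psat1 and Cth, named after their values were seen, had the largest positive differences of the 13 from vehicle. In all mice these were 1.20 (adjusted p = 0.0593) and 0.98 (adjusted p = 0.178). Without mouse 13 both passed, at 1.43 each (adjusted p = 0.0185 and 0.0146). The classical target Asns, asparagine synthetase, which was chosen for mention after its values were seen, had normalized counts of 26.0 ± 9.15 under vehicle, 42.5 ± 29.1 under semaglutide (SD, n = 5 each) and 22.5 ± 11.9 (n = 3) with the ketone ester, and its difference from vehicle did not pass (0.56, standard error 0.41, adjusted p = 0.335).

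Of 7 amino acid transporters tested, 2 were higher under semaglutide (28.6%, against 12.5% of all genes). With the ketone ester, 3 were lower than under semaglutide (42.9%, against 10.7%). Slc6a9, a glycine transporter, had normalized counts of 78.7 to 142 under vehicle, 218 to 329 under semaglutide and 133 to 164 under semaglutide + ketone ester, and the semaglutide-treated mice lay above all others (1.30, adjusted p = 0.000105 from vehicle, and -0.79, adjusted p = 0.00920 for the ketone ester). Slc3a2, the heavy chain shared by several transporters, was higher by 0.49 (adjusted p = 0.00101). Slc38a2, a glutamine transporter, was the 1 gene of the list that differed between semaglutide + ketone ester and vehicle, with 1722, 1767 and 1401 against 3183 to 4870.1 (log2 difference -1.22, standard error 0.17, adjusted p = 0.0110). Slc7a11, the cystine transporter, did not reach the mean of 10, with at most 5 reads in a mouse.

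Of 13 genes of tRNA charging and export, 8 were higher under semaglutide than vehicle (61.5%, against 12.5% of all genes, median log2 difference 0.43). With the ketone ester, 6 were lower than under semaglutide (46.2%, against 10.7%, median -0.40). Mars, the methionyl-tRNA synthetase, went from 1081 ± 25.6 to 1821 ± 357 (SD, n = 5 each, adjusted p = 0.00100), with mouse 13 at 1194 and the other 4 semaglutide-treated mice between 1903 and 2092. Iars, Gars and Tars differed by 0.59, 0.58 and 0.50 (adjusted p = 0.00326, 0.000620 and 0.00791).

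Among other targets of ATF4 and CHOP, 3 of 9 tested were higher under semaglutide (33.3%, against 12.5% of all genes) and 1 lower (11.1%, against 13.9%). The difference from vehicle was largest among all 99 genes for Eif4ebp1, which encodes the translation repressor 4E-BP1, with normalized counts of 448 to 621 under vehicle, 772, 3467, 4047, 4713 and 5033 in semaglutide mice 13 to 17, and 737, 627 and 689 with the ketone ester. Mouse 13 lay just above the vehicle and ketone ester-treated mice and far below the other semaglutide-treated mice. The log2 difference was 2.48 (standard error 0.39, adjusted p = 0.000577) from vehicle, 2.97 without mouse 13, and -2.15 (adjusted p = 0.00468) for the ketone ester against semaglutide. Bbc3, which encodes the pro-apoptotic protein PUMA, was higher by 1.20 (adjusted p = 0.0159), and Niban1, listed as Fam129a, was lower by 0.69 (log2 difference -0.69, adjusted p = 0.00204). Ddit4, an mTORC1 inhibitor, was lower with the ketone ester than under semaglutide (-2.18, adjusted p = 0.0320), a call lost in 8 of 24 alternatives. Its difference from vehicle was 1.03 (adjusted p = 0.204) in all mice and 1.53 (adjusted p = 0.0178) without mouse 13. Pmaip1 had a mean under 10, and Adm2 had no read in any mouse.

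The branch of the unfolded protein response run by ATF6 and XBP1 in the endoplasmic reticulum had the highest share of genes raised among the groups of more than 5 genes. Of its 18 genes, 12 were higher under semaglutide (66.7%, against 12.5% of all genes) and none lower (median 0.53). With the ketone ester 10 were lower (55.6%, against 10.7%) and none higher (median -0.68). The normalized counts of Xbp1, its transcription factor, were 758 to 1004 under vehicle, 1403, 2111, 1672, 1943 and 1876 in semaglutide mice 13 to 17, and 830.4 to 994 under semaglutide + ketone ester. All semaglutide-treated mice, mouse 13 included, lay above all other mice, with log2 differences of 0.99 (standard error 0.11, adjusted p = 7.56e-05) and -0.96 (adjusted p = 0.000586). Manf, a secreted protein of the endoplasmic reticulum, differed by 0.89 (adjusted p = 0.00165), Edem1, which directs misfolded glycoproteins to degradation, by 0.73 (adjusted p = 0.0104), and the stress sensor Atf6 by 0.67 (adjusted p = 0.00734). Derl3 had a mean under 10, with 9 reads or fewer in each mouse.

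Of 9 mitochondrial chaperones and proteases, 1 was higher and 1 lower under semaglutide, 11.1% each way, near the 12.5% and 13.9% of all genes. Without mouse 13 the numbers were 3 and 1, and with columns rescaled to equal totals 5 and none. Hspe1, the mitochondrial chaperonin HSP10, was higher under semaglutide (545 ± 20.3 against 403 ± 48.8, SD, n = 5 each, 0.44, adjusted p = 0.00456) and the protease Lonp1 was lower (-0.32, adjusted p = 0.00928). The difference of Lonp1 between the ketone ester and semaglutide was 0.24 (adjusted p = 0.0794) in all mice and 0.26 (adjusted p = 0.0479) without mouse 13.

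**Figure D4:**
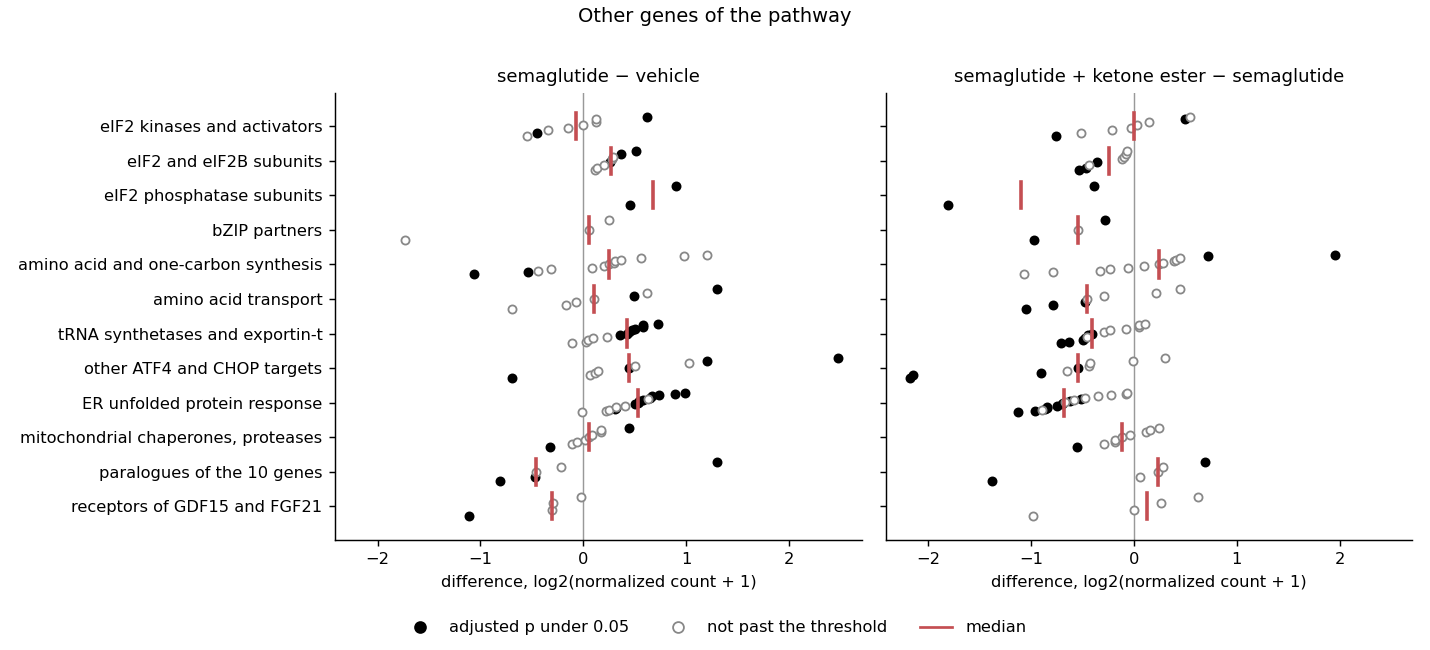
Differences between semaglutide and vehicle (left) and between semaglutide + ketone ester and semaglutide (right) on the log2(normalized count + 1) scale for the 99 tested genes of the pathway list by function, 1 point per gene, filled where the adjusted p was under 0.05, with the median of each function as a red line. The endoplasmic reticulum genes and tRNA synthetases lie mostly above 0 on the left (medians 0.53 and 0.43) and mostly below 0 on the right (medians -0.68 and -0.40).

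Of 5 tested paralogues of the 10 genes, 1 was higher (20%, against 12.5% of all genes) and 2 were lower (40%, against 13.9%) under semaglutide. Sesn1, a sestrin relative of Sesn2, had normalized counts of 271 to 415 under vehicle, 277, 612, 1273, 1694 and 1579 in semaglutide mice 13 to 17, and 306 to 396 with the ketone ester (1.30, standard error 0.39, adjusted p = 0.0237 from vehicle, and -1.38, adjusted p = 0.0409 for the ketone ester). Mouse 13 lay within the vehicle range and the other 4 lay above it, and without it the differences were 1.72 and -1.80. The call against vehicle was lost in 4 and that for the ketone ester in 14 of 24 alternatives. Chac2, the constitutive relative of Chac1, was lower under semaglutide (85.8 ± 20.7 against 148 ± 12.7, SD, n = 5 each, -0.81, adjusted p = 0.00194), below all vehicle-treated mice, and higher with the ketone ester (0.69, adjusted p = 0.0140). Trib1 was lower by 0.47 (log2 difference -0.47, adjusted p = 0.0324), a call lost in 9 of 24 alternatives. Trib2 did not pass (-0.22, adjusted p = 0.501), Sesn3 was at -0.46 (adjusted p = 0.0880) in all mice and at -0.63 (adjusted p = 0.00416) without mouse 13, and Stc1 and Nupr1l had means under 10 over all mice.

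Of the 7 receptors and co-receptors of GDF15 and FGF21, 4 reached the mean of 10. Of these, 1 passed the threshold, as lower under semaglutide than vehicle (25%, against 13.9% of all genes). Gfral, the GDF15 receptor of the hindbrain, had no read in any mouse. Its co-receptor Ret was lower under semaglutide (46.3 ± 19.5 against 99.1 ± 30.7, SD, n = 5 each, -1.11, adjusted p = 0.00826). Klb, the co-receptor of FGF21, had a mean under 10, with 56 reads in semaglutide mouse 16, the mouse with the high adipocyte markers, and 8 reads or fewer in the others. Fgfr1 was at 1511 ± 83.3 under vehicle and 1492 ± 135 under semaglutide (-0.02, adjusted p = 0.871), Fgfr3 (-0.30, adjusted p = 0.545) and Fgfr4 (-0.30, adjusted p = 0.259) did not pass from vehicle, Fgfr4 was higher with the ketone ester than under semaglutide only without mouse 13 or under 4 other alternatives (0.63, adjusted p = 0.0559 in all mice, and 0.70, adjusted p = 0.0287 without mouse 13), and Fgfr2 had a mean under 10.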

How the data were processed

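Total RNA from gastrocnemius (TRIzol) was made into stranded mRNA libraries and sequenced paired-end, and the authors aligned the reads to mm10 with DRAGEN. The submitters' processing notes also name DESeq2. The counter, the annotation and versions are not given in the sources used here. The deposited values are normalized counts per gene, a signal scaled for library size, with 1 column per mouse. Every value (100%) was a whole multiple of 1 step per mouse within 0.01 reads, so whole reads were recovered. Groups follow the labels, all 13 mice carry 1 batch date, and no columns were identical.

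Values were transformed to log2(normalized count + 1), and the 12303 of 21868 genes with a mean of at least 10 were fitted with limma 3.58.1 (R 4.3.3, moderated test with a variance trend, all 3 groups in the model, Benjamini-Hochberg adjustment over all genes, threshold 0.05). Differences on this scale understate the change of low genes. The fit was tested on simulated data. Alternatives were edgeR 4.0.16 and DESeq2 1.42.0 on recovered reads, other scalings, pseudocounts and filters, a weight per mouse, a fit of only 2 groups, the criterion of the study's methods, each mouse left out and, added after the data were seen, no variance trend.

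The 10 genes and all gene lists were chosen with earlier results of these data known. Named from the pathway list were up to 4 genes per function with the largest difference between semaglutide and vehicle among those past the threshold in any pair of groups, genes under the mean of 10, and all paralogues and receptors, besides the 5 genes most correlated with Atf4. Coordinates and transcripts are from GENCODE vM21, promoters from RefSeq (GRCm38.p6), in which all 10 genes matched. Counting error alone allows up to 3 reads where a library has 0.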

Additional observations from a re-analysis of the deposited data

Results flagged for a closer look

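Groups of 5 mice were searched for a mouse whose gap to its nearest neighbor exceeded Dixon's 95% critical value of 0.71 of the group's range. Of 94 groups of values looked at, 10 were found, and chance gives about 1 in 20 (values are normalized counts). Semaglutide mouse 13 gave 5 of them. It was at 407 for Ppp1r15a, with 1279 to 1402 in the remaining 4 mice of its group, at 113 for Aldh1l2 against 22.4 to 46.7, at 184 for Psph against 76.8 to 102, at 1194 for Mars against 1903 to 2092, and at 679 for Atf6 against 1251 to 1400.3. In each case it lay on the side of the vehicle-treated mice.

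Sesn2 was at 132 in semaglutide mouse 16 against 45.5 to 67.1 in the other semaglutide-treated mice, and this mouse also had the highest summed adipocyte markers, whose part was not tested. Manf was at 628 in semaglutide mouse 14 against 293 to 371. Vehicle mouse 3 was at 271 for Sesn1 against 377 to 415, at 1656 for Fgfr1 against 1441 to 1486, and at 1.24 for Fgf21, which is a single read where the other vehicle-treated mice had none.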

How the results depend on the processing

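Atf4 and Stc2 kept their direction and their call in both comparisons with semaglutide under all 24 alternatives. Rescaling the columns to equal totals put the median of all genes at 0.17 for semaglutide minus vehicle and at -0.24 for the ketone ester group minus semaglutide. Under it the Atf4 difference in the latter was -0.93, and the pathway list had 53 genes higher and 5 lower in the former, 55 lower in the latter, and 63 past the threshold over the 3 groups. A weight per mouse also gave 63 over the 3 groups and 4 lower between semaglutide + ketone ester and vehicle, where DESeq2 gave 2. With only the 2 groups compared, 2 genes were higher and 19 lower between semaglutide + ketone ester and semaglutide, and 4 lower between semaglutide + ketone ester and vehicle. With each mouse left out in turn, pathway genes higher under semaglutide than vehicle numbered 26 to 47 and lower 5 to 11 (5 without vehicle mouse 2 or semaglutide mice 15 or 17). Between semaglutide + ketone ester and semaglutide they numbered 2 to 7 (2 without mouse 21) and 20 to 44, between semaglutide + ketone ester and vehicle 0 to 4 lower (2 without vehicle mouse 4), and over the 3 groups 30 to 62, with the highest of each range without semaglutide mouse 13. Why these counts moved was not tested, and no share of all genes past the threshold is given here for any alternative. Of the calls not made in all mice, Chac1 against vehicle also passed with a weight per mouse, as did Ddit3 between the ketone ester and semaglutide, and Nupr1 against vehicle passed with it and by DESeq2. Signs of small differences changed under some alternatives, against vehicle for Ddit3 in 5, Trib3 in 3 and Sesn2 in 1 of 24 under semaglutide, and for Stc2 in 6, Chac1 in 3 and Nupr1 in 2 of 24 with the ketone ester. Among the named pathway genes, 2494 alternative values kept their direction and side of the threshold, 153 lost a call and 17 gained one. Beside those given with the genes, calls lost included that of Eif2s2 against vehicle in 5 of 24. Between the ketone ester and semaglutide they included Eif2b1 in 6, Psph in 7, Iars in 10, and Tars and Atf6 in 3 each. The criterion of the study's methods applies to the 3 groups together, where 28 genes of the list met it, and a fit of 2 groups gives no value there. Only 3 mice received the ketone ester, and depth limits Gdf15 and Fgf21. No paired analysis was possible because each group held different mice and the labels do not match mice between groups.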
